A study of Mus musculus with 9 samples.

Results

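The 8 genes described here encode chaperones and oxidoreductases that fold glycoproteins in the endoplasmic reticulum (ER). They are Clgn (calmegin), Canx (calnexin), Calr (calreticulin), Calr3 (calreticulin 3, also called calsperin), Pdilt, Pdia3, Pdia4 and P4hb. They were chosen by name for their place in the folding of sperm surface proteins by a rule that uses no measured value, although earlier results of these data were known when they were chosen. They are 8 of the 38685 genes and loci in the deposited table. All 8 were among the 14893 genes with enough reads to be tested.

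RNA came from whole testes, freed of the tunica albuginea, of C57BL/6 male mice that differed in the gene for protamine-2, a small basic protein that packs the sperm DNA. The 3 groups were Prm2+/+ (wildtype), Prm2+/- (1 edited allele) and Prm2-/- (Prm2-deficient, both alleles edited), with 3 libraries each. The lines were made by CRISPR/Cas9 editing in oocytes, and the age of these males and the number of founder lines behind the libraries are not given in the sources used here. QuantSeq, the method used, reads polyadenylated RNA near its 3′ end. Values are normalized counts, that is, reads per gene after the authors divided each library by 1 size factor. The reads recovered from them summed to between 3629929 and 4490411 per library. These sums are below the number of sequenced reads per sample that the paper gives. Prm2 itself had 29757, 29716 and 39665 normalized counts in Prm2+/+, 30174, 31011 and 34487 in Prm2+/- and 34660.3, 36004 and 42766 in Prm2-/-. Since 3′ tags need not cover an edited stretch, the Prm2 level does not check the genotype labels, and genotypes are those of the libraries as labelled.

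New glycoproteins in the ER carry a glucose-trimmed sugar chain that calnexin, bound to the membrane, and calreticulin, free in the lumen, hold while the protein folds. Oxidoreductases of the protein disulfide isomerase family form and rearrange disulfide bonds in the held protein. Male germ cells add testis-specific relatives of these proteins: calmegin next to calnexin, CALR3 next to calreticulin and PDILT next to the disulfide isomerases. In mice these relatives are known to be needed for the maturation of ADAM3, a sperm surface protein required for sperm to pass from the uterus into the oviduct and to bind the egg coat.

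The regulatory sequence that marks the general ER folding genes is the ER stress response element (ERSE), spelled CCAAT, any 9 bases, then CCACG, to which the transcription factors NF-Y and ATF6 are known to bind. It is shown here because it is the element by which the general ER folding genes are known to answer ER stress. Promoter windows of 300 bases, from 250 before to 50 after each annotated start, were taken from RefSeq on GRCm38.p6 and searched on both strands. They were found for 7 of the 8 members, with Clgn the exception, and Calr3 had a window for each of its starts. Only Canx and Calr of these 7 held an exact match, compared with 39 of all 32851 promoters (0.119%). Capitals mark the fixed letters of the motif.
Canx: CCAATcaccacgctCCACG
Calr: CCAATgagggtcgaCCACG

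The Canx match lies on the strand of the gene at chr11:50325800-50325818, and its outer end is 145 bases before the annotated start. The Calr match lies on the opposite strand at chr8:84847075-84847093, with its outer end 162 bases before the start. For comparison, the promoters of the ER stress genes Hspa5 (BiP, the main ER member of the Hsp70 family) and Hsp90b1 (GRP94) held 1 and 2 matches. The following lines give the Hspa5 match at chr2:34772025-34772043 and the Hsp90b1 match at chr10:86705638-86705656, both on the strand of the gene.
Hspa5: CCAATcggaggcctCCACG
Hsp90b1: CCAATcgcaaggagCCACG

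Windows of Calr3, Pdilt, Pdia3, Pdia4 and P4hb held no exact match to these letters. The cyclic AMP response element TGACGTCA, a palindrome bound by CREM, a regulator of spermatid genes, was found in no member window and in 588 of all promoters (1.79%). These matches are descriptions of the windows and not evidence of binding, and an absent match says only that the letters are not in that window.

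Clgn had the highest normalized count of the 8 genes in every library. It lies on chromosome 8 of GRCm38 from 83389867 to 83428552, plus strand. Its normalized counts were 2301, 2622 and 2871 in Prm2+/+, 2325, 2459.9 and 2025 in Prm2+/- and 2029, 2328 and 2304 in Prm2-/-. The groups overlapped, and the whole spread from the lowest to the highest library was 1.42-fold. Means were 2598 ± 285 in Prm2+/+, 2270.2 ± 223 in Prm2+/- and 2220.5 ± 166 in Prm2-/- (SD, n = 3 each). The log2 fold change (LFC) of Prm2-/- against Prm2+/+ was -0.22 (95% interval -0.48 to 0.03), which did not pass the test (limma, Benjamini-Hochberg adjusted p = 0.716).

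Canx, whose product is the membrane-bound relative of calmegin, is on chromosome 11 from 50293961 to 50325673, minus strand. It had 526, 125 and 140.3 normalized counts in replicates 1 to 3 of Prm2+/+, 525, 487 and 432 in Prm2+/- and 519.8, 455 and 491 in Prm2-/-. Replicates 2 and 3 of Prm2+/+ were thus low, while replicate 1 of the same genotype was the highest library of all. The mean was 264 ± 227 in Prm2+/+, 481 ± 46.7 in Prm2+/- and 488 ± 32.7 in Prm2-/- (SD, n = 3 each).
The LFC of Prm2-/- against Prm2+/+ was 1.21 (95% interval 0.10 to 2.32) and that of Prm2+/- against Prm2+/+ was 1.19 (0.08 to 2.29). Neither passed the test (limma, adjusted p = 0.649 and 0.842), although the unadjusted p-values were 0.0358 and 0.0387. Prm2-/- and Prm2+/- differed by an LFC of 0.02 (-1.08 to 1.13). These results turned on 1 library. Without replicate 1 of Prm2+/+, Canx was called higher in both genotypes, with an LFC of 1.87 (adjusted p = 0.00159 in limma) and 1.85 (adjusted p = 0.00283). Without replicate 2 or replicate 3 of Prm2+/+ it was not called, with an LFC of 0.84 and 0.92 for Prm2-/- (limma, adjusted p = 0.570 and 0.690).

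The split of Canx between libraries was examined across all genes. Sorted on the log2 scale, the 9 Canx values had a largest gap of 1.62 between neighbours, and 16.2% of tested genes had a larger one. Gaps over 1 log2 unit were found in 3273 tested genes (21.98%). Of these, 28 (0.188% of tested genes) had, as Canx did, replicates 2 and 3 of Prm2+/+ below and the other 7 libraries above the gap. This pattern was taken from Canx itself and other pairs of libraries were not counted, so the share does not show that the split is unusual. The annotated neighbour Maml1, a Notch coactivator gene on the same strand within 15000 bases, had 8.84 to 19.2 normalized counts across the 9 libraries. Clgn did not share the split, so the ratio of Clgn to Canx was 20.9 and 20.5 in replicates 2 and 3 of Prm2+/+ and between 3.90 and 5.12 in the other 7 libraries. The cause of the split was not tested.

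**Figure D1:**
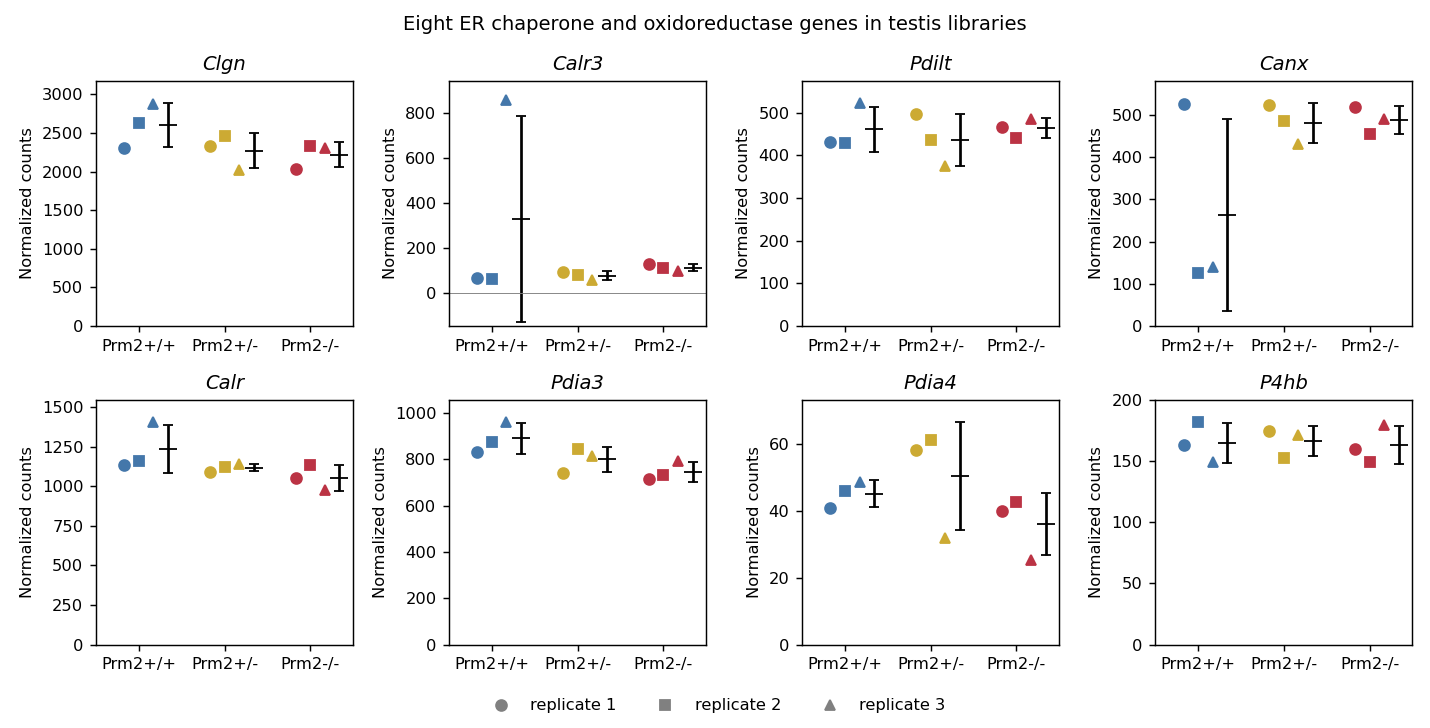
Normalized counts of the 8 genes in each of the 9 libraries, by genotype (points, with the replicate number as the symbol) and as mean ± SD of 3 libraries (black bars). Canx is low in replicates 2 and 3 of Prm2+/+ (125 and 140.3), Calr3 is high in replicate 3 of Prm2+/+ (859), and the other 6 genes differ by at most 2.41-fold between any 2 libraries.

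Calr, the soluble chaperone, is on chromosome 8 from 84841850 to 84846934, minus strand, and had the second highest normalized counts after Clgn. It had 1137, 1157 and 1408 normalized counts in Prm2+/+, 1092, 1123 and 1139 in Prm2+/- and 1051, 1136 and 974 in Prm2-/-. All libraries of Prm2-/- lay below all of Prm2+/+, although the lowest Prm2+/+ library (1137) and the highest Prm2-/- library (1136) were nearly equal. Means were 1234 ± 151 in Prm2+/+, 1118 ± 23.6 in Prm2+/- and 1054 ± 81.0 in Prm2-/- (SD, n = 3 each). The LFC of Prm2-/- against Prm2+/+ was -0.22 (95% interval -0.46 to 0.01) and did not pass the test (limma, adjusted p = 0.700).

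Calr3, the testis form of calreticulin, is on chromosome 8 from 72424176 to 72443870, minus strand. It had 70.3, 63.2 and 859 normalized counts in Prm2+/+, 96.9, 81.3 and 57.4 in Prm2+/- and 130.4, 113 and 99.3 in Prm2-/-. Replicate 3 of Prm2+/+ thus stood apart from the other 8 libraries, by a gap of 2.71 on the log2 scale, and 9.72% of tested genes had a larger gap. Replicate 3 of Prm2+/+ alone was above such a gap of over 1 log2 unit in 26 tested genes (0.175%), and alone below one in 972 (6.53%). The first pattern was taken from Calr3 itself, so its share does not show that the value is unusual. The other 8 libraries were each alone above such a gap in 9 (replicate 2 of Prm2+/-) to 29 (replicate 1 of Prm2-/-) tested genes.
All 3 libraries of Prm2-/- lay above those of Prm2+/-, with an LFC of 0.56 (95% interval -1.496 to 2.61) that did not pass the test (limma, adjusted p = 0.9997). The LFC of Prm2-/- against Prm2+/+ was -0.46 (-2.52 to 1.59). Without replicate 3 of Prm2+/+ it was 0.76, the opposite direction, and still did not pass (limma, adjusted p = 0.476). Without that library the LFC of Prm2-/- against Prm2+/- remained 0.56, with an unadjusted p of 0.0312 (adjusted p = 0.576 in limma).
The gene overlaps a processed pseudogene, Gm3835, on its strand, whose values were not analysed here. Of its neighbours in the table, 1700030K09Rik had 313 to 414 normalized counts in the 9 libraries. Eps15l1, an endocytosis gene on the strand of Calr3, had 0 in replicate 1 and 2.21 in replicate 3 of Prm2+/+, and 20.8 to 35.5 in the other 7 libraries. The ratio of Calr3 to Calr was 0.610 in replicate 3 of Prm2+/+ and 0.0504 to 0.124 elsewhere. These ratios are of normalized counts, not scaled to transcript length.

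**Figure D2:**
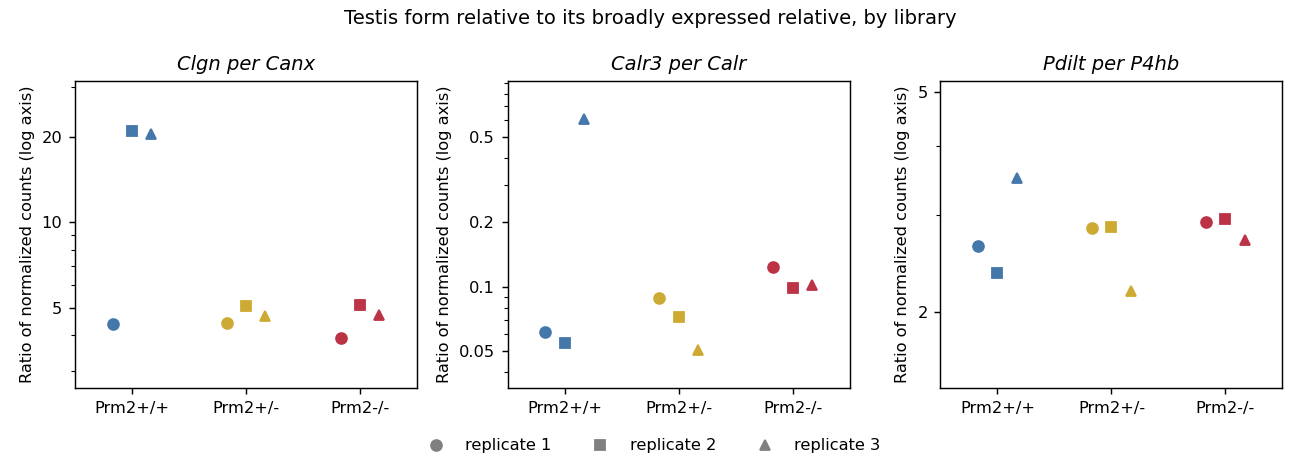
Ratio of the normalized counts of each testis form to its broadly expressed relative (log axis) in each library, by genotype, with the replicate number as the symbol. Clgn to Canx is 20.9 and 20.5 in replicates 2 and 3 of Prm2+/+ and 3.90 to 5.12 elsewhere, Calr3 to Calr is 0.610 in replicate 3 of Prm2+/+ and 0.0504 to 0.124 elsewhere, and Pdilt to P4hb runs from 2.19 to 3.50.

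Pdilt, the testis member of the disulfide isomerase family, lacks the classical active-site cysteine pairs of its relatives and works with calmegin. The gene is on chromosome 7 from 119486587 to 119523489, minus strand. Its normalized counts were 431, 429 and 522 in Prm2+/+, 497, 435 and 375 in Prm2+/- and 466, 439 and 485 in Prm2-/-. The 3 groups overlapped, and the LFC of Prm2-/- against Prm2+/+ was 0.01 (95% interval -0.28 to 0.31; limma, adjusted p = 0.9904). Acsm5, Gm37518 and Gm26967 overlap the gene and had at most 2.74, 13.7 and 5.48 normalized counts.

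P4hb encodes protein disulfide isomerase itself and is on chromosome 11 from 120560298 to 120573253, minus strand. It was the steadiest of the 8, with 163, 182 and 149 normalized counts in Prm2+/+, 175, 153 and 171 in Prm2+/- and 160.3, 149 and 179.5 in Prm2-/-. The groups overlapped, the highest library was 1.22-fold above the lowest, and 97.5% of tested genes had a wider range on the log2 scale. The LFC of Prm2-/- against Prm2+/+ was -0.02 (95% interval -0.30 to 0.27; limma, adjusted p = 0.988). The ratio of Pdilt to P4hb was 2.83 ± 0.595 in Prm2+/+, 2.63 ± 0.381 in Prm2+/- and 2.85 ± 0.133 in Prm2-/- (SD, n = 3 each).

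Pdia3 (ERp57), which works on glycoproteins held by calnexin and calreticulin, is on chromosome 2 from 121413775 to 121438687, plus strand. It had 832, 874 and 961 normalized counts in Prm2+/+, 740.5, 845 and 815 in Prm2+/- and 714, 729.6 and 794 in Prm2-/-. All 3 libraries of Prm2-/- lay below all 3 of Prm2+/+, and Prm2+/- overlapped both. Means were 889 ± 65.7, 800.0 ± 53.7 and 746 ± 42.6 (SD) in that order of genotypes.
The LFC of Prm2-/- against Prm2+/+ was -0.25 (95% interval -0.46 to -0.04) with an unadjusted p of 0.0241, and it did not pass the test over all genes (limma, adjusted p = 0.612). The Catsper2 gene, which encodes a sperm calcium channel subunit, overlaps Pdia3 by 18 bases on the other strand. It had 166 normalized counts in replicate 3 of Prm2+/+ and 555 to 919 in the other 8 libraries, a split that Pdia3 did not share.

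Pdia4 (ERp72), a disulfide isomerase with several thioredoxin-like domains, had the lowest normalized counts of the 8. It is on chromosome 6 from 47796141 to 47813430, minus strand. Its normalized counts were 40.9, 46.1 and 48.6 in Prm2+/+, 58.3, 61.2 and 31.8 in Prm2+/- and 39.8, 42.6 and 25.3 in Prm2-/-. The groups overlapped in each comparison. The lowest library held 24 recovered reads. If these equal sequenced reads, counting error alone gives an exact Poisson 95% interval of 15.4 to 35.7. Small differences were thus not detectable at this level. The LFC was -0.35 (95% interval -1.03 to 0.32) for Prm2-/- against Prm2+/+ and -0.46 (-1.13 to 0.22) against Prm2+/- (limma, adjusted p = 0.765 and 0.977). Without replicate 3 of Prm2-/-, the library with 24 reads, these values were -0.13 and -0.23. Against Prm2+/- the LFC was -0.29 without replicate 2 and -0.75 without replicate 3 of Prm2+/-.

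Levels of different genes were compared per kilobase of the longest coding transcript, with the reserve that 3′ tags need not scale with length. On that scale the mean level in Prm2+/+ was 666 for Clgn, 565 for Calr, 321 for Pdia3, 215 for Pdilt, 187 for Calr3, 61.7 for Canx, 57.6 for P4hb and 18.8 for Pdia4. In Prm2-/- it was 569 for Clgn, 482 for Calr, 269 for Pdia3, 216 for Pdilt, 114 for Canx, 64.5 for Calr3, 57.0 for P4hb and 14.98 for Pdia4. Canx and Calr3 thus changed places between the genotypes. Both had, in Prm2+/+, an SD near or above their mean, so their places there rest on the libraries that stood apart. Without scaling to length, the mean of Canx in Prm2-/- (488) was above that of Pdilt (463), the reverse of their order per kilobase. The 8 genes summed to 5046 to 6958 normalized counts per library, of which Clgn made up 39.7% to 47.7%. The highest sum belonged to replicate 3 of Prm2+/+.

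Across the 8 genes, no member (0) was called in any of the 3 comparisons at an adjusted p under 0.05 and an LFC beyond 0.5, by limma, edgeR or DESeq2. The background for Prm2-/- against Prm2+/+ was 27 of 14893 tested genes, or 0.181%. For Prm2+/- against Prm2+/+ it was 12 (0.0806%) and for Prm2-/- against Prm2+/- it was 26 (0.175%).
At an unadjusted limma p under 0.05, 2 members passed for Prm2-/- against Prm2+/+ (Canx and Pdia3), where 7.33% of tested genes did, 1 for Prm2+/- against Prm2+/+ (Canx, background 4.24%) and 0 for Prm2-/- against Prm2+/- (5.44%). With edgeR it was 1, 0 and 0 members, and the same counts were obtained with DESeq2. For Prm2-/- against Prm2+/+ the genotypes did not overlap for 2 members, Calr and Pdia3, both lower in Prm2-/-, compared with 7.1% of tested genes in that direction and 14% in either. Genotypes did not overlap for 0 members between Prm2+/- and Prm2+/+ (9.44% of tested genes) and for 1, Calr3, between Prm2-/- and Prm2+/- (7.47% in that direction and 14.7% in either).

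**Figure D3:**
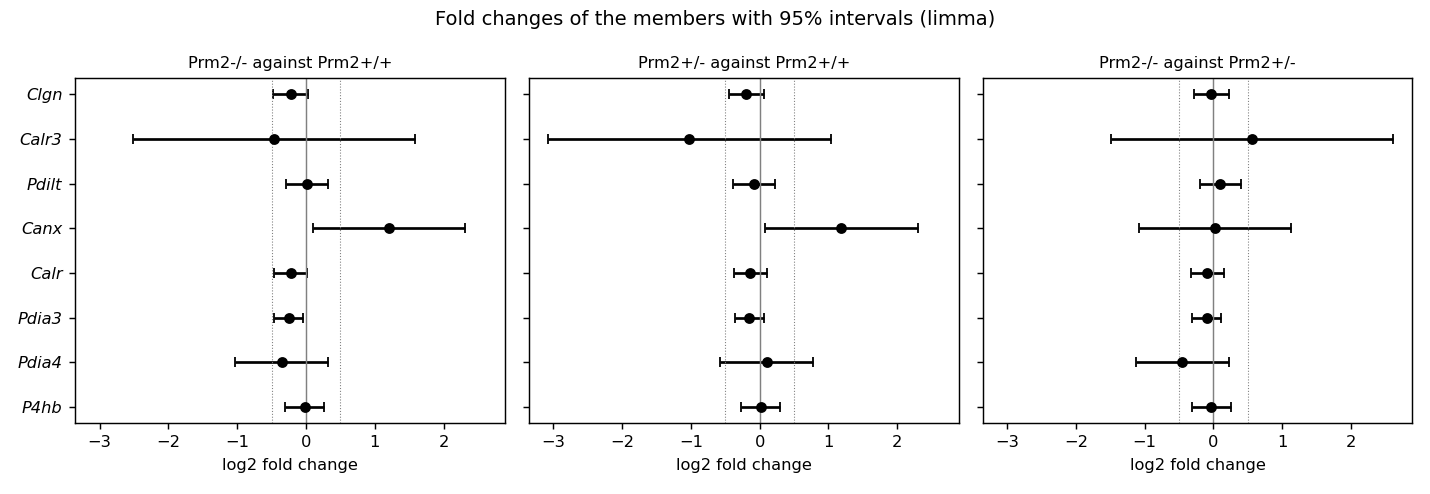
Log2 fold changes of the 8 genes (points) with 95% intervals (lines) from limma, 1 panel per comparison. The intervals of Canx and Calr3 are the widest, and those of Clgn, Calr, Pdilt, Pdia3 and P4hb lie within 1 log2 unit of 0 in all 3 panels.

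For Prm2-/- against Prm2+/+, 6 of the 8 LFCs were below 0, with a median of -0.22, while 47.1% of tested genes were below 0 and their median was 0.02. For Prm2+/- against Prm2+/+ the figures were 5 of 8 with a median of -0.11, compared with 48.1% and 0.01. For Prm2-/- against Prm2+/- they were 5 of 8 with a median of -0.03, compared with 51% and -0.01. These comparisons share libraries, and the medians depended on single ones. When replicate 3 of Prm2+/+ was left out, 5 of the 8 were below 0 in Prm2-/-, with a median of -0.11, and the median in Prm2+/- was -0.014. Leaving out replicate 3 of Prm2-/- gave a median of -0.15 in Prm2-/-, with 7 of the 8 below 0. Leaving out replicate 3 of Prm2+/- gave -0.061 in Prm2+/-. Both medians are relative to Prm2+/+. Other omissions moved the medians relative to Prm2+/+ the other way. Without replicate 1 of Prm2+/+ they were -0.29 in Prm2-/-, with 7 of the 8 below 0, and -0.16 in Prm2+/-. Without replicate 2 of Prm2+/+ they were -0.24 and -0.15 in that order. Without replicate 2 of Prm2-/- the median in Prm2-/- was -0.25. The median of Prm2-/- relative to Prm2+/- was -0.063 when replicate 3 of Prm2+/- was left out and -0.0015 when replicate 1 was. Canx and Calr3 were also left out, a choice made after their values were seen. The remaining 6 genes had LFCs between -0.35 and 0.01 for Prm2-/- against Prm2+/+, with interval bounds from -1.03 to 0.32. In bulk tissue, fewer cells of a type and less RNA per cell cannot be told apart.

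Among the 9 libraries, replicate 3 of Prm2+/+ had the highest value for 5 of the 8 genes (Clgn, Calr, Calr3, Pdilt and Pdia3), while it was highest for 23.9% of tested genes. The same library stood apart in other respects. Ldhc, the germ cell lactate dehydrogenase, had 2505 normalized counts there and 27414 to 36393 in the other 8 libraries. Of the other spermatocyte markers, Hormad1 was also low there, at 32.0 beside 96.0 to 145.7 elsewhere, and Sycp3 was at 538 beside 624 to 1083. Sycp1 was at 1566 there and 1611 to 2006 elsewhere, and Piwil1 at 2654 and 2792 to 3075. Spo11, which was not tested, had 151 and 156 in replicates 2 and 3 of Prm2+/+ and 3.62 to 9.50 elsewhere. Among round spermatid markers, Spaca1 (285, beside 862 to 1066) and Acr were lowest in replicate 3 of Prm2+/+, and Acrv1 and Tssk1 highest. Of the 9 elongating spermatid markers, 4 (44.4%) were highest there, namely Tnp1, Tnp2, Hils1 and Odf1, the last at 7951. Prm1, Akap4 and Smcp were lowest there, with Smcp at 7978. Without this library, the LFCs of Clgn, Calr and Pdia3 for Prm2-/- against Prm2+/+ were -0.15, -0.13 and -0.20, and none of the 3 passed the test in limma. The part of these marker values in the result was not tested.

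**Figure D4:**
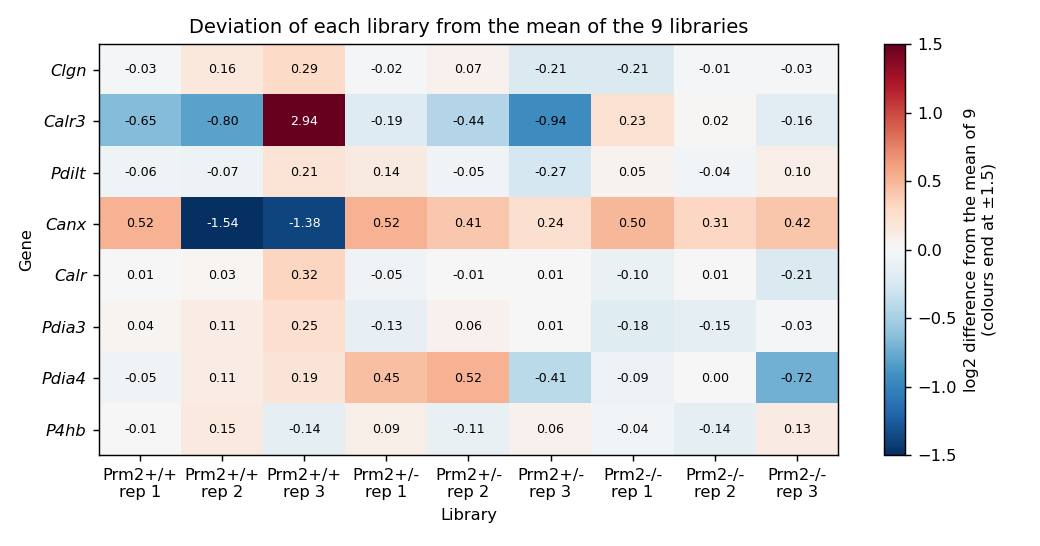
Difference of each library (columns) from the mean of the 9 libraries on the log2 scale, for each of the 8 genes (rows), with colours ending at ±1.5. Replicate 3 of Prm2+/+ is highest for Clgn, Calr, Calr3, Pdilt and Pdia3, and Canx is low in replicates 2 and 3 of Prm2+/+.

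Tissue and cell markers were measured to check the labelled tissue. The 9 elongating spermatid markers summed to 216091 to 236568 normalized counts, most of it from Prm1 and Tnp1, and markers of Sertoli cells summed to 672 to 896 normalized counts and of Leydig cells to 1795 to 2565. Of 5 epididymal epithelium markers, Lcn5, Lcn8 and Lcn9 were at 0 in all 9 libraries, and the 5 summed to at most 9.50. None of the tested genes of the 10 marker lists of germ and somatic cell types, including the elongating spermatid, Sertoli and Leydig lists, was called between genotypes. For Prm2-/- against Prm2+/+, the medians of the tested marker lists were above 0, from 0.03 (round spermatids) to 0.62 (macrophages), except for peritubular cells. Of the 4 tested macrophage genes, 2 were above 0 (Adgre1 at 1.24 and C1qa at 1.29) and 2 below (Csf1r at -0.001 and Lyz2 at -0.06). Adgre1 and C1qa had at most 13.7 and 30.4 normalized counts, and both were at 0 in some Prm2+/+ library. Markers of peritubular cells, the contractile cells around the tubules, had LFCs below 0 like most members. All 3 tested ones were below 0 for Prm2-/- against Prm2+/+, with a median of -0.28, and 2 had an unadjusted limma p under 0.05 (Cnn1 at -0.76 and Acta2 at -0.27, adjusted p = 0.522 and 0.604). Acta2 had 227, 212 and 206 normalized counts in Prm2+/+ and 167, 189 and 179.5 in Prm2-/-. The 3 were also below 0 for Prm2+/- against Prm2+/+, with a median of -0.22. Any part of these markers in the LFCs of the members was not tested.

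The wider folding machinery was described by 3 further lists. Of 40 other ER folding genes, 37 were tested, and none (0) was called in any comparison (limma). At an unadjusted limma p under 0.05 there were 2 higher and 1 lower for Prm2-/- against Prm2+/+ and 0 for Prm2+/- against Prm2+/+. For Prm2-/- against Prm2+/- there were 1 higher and 1 lower. Over all tested genes the shares in either direction were 7.33%, 4.24% and 5.44% in that order of comparisons. Hspa5 had 678, 647 and 391 normalized counts in Prm2+/+, 366, 685 and 458 in Prm2+/- and 716, 691 and 325 in Prm2-/-. Its groups overlapped throughout, and its LFC was -0.03 for Prm2-/- against Prm2+/+ (limma, adjusted p = 0.994). Hsp90b1 had 769, 871 and 915 in Prm2+/+, 793, 1819 and 1371 in Prm2+/- and 749, 1976 and 794 in Prm2-/-, and was high in 1 Prm2-/- and 2 Prm2+/- libraries. Its LFC was 0.31 (95% interval -0.64 to 1.27; limma, adjusted p = 0.845).
The libraries in which Canx was low, replicates 2 and 3 of Prm2+/+, had neither the lowest nor the highest Hsp90b1 values. The ER folding gene with the smallest p for Prm2-/- against Prm2+/+ was Prkcsh, which encodes the regulatory subunit of glucosidase II. It had 141, 143 and 14.8 normalized counts in Prm2-/- and 4.42 to 10.96 in the other 6 libraries, with an LFC of 3.42 that did not pass (limma, adjusted p = 0.380). For Prm2+/- against Prm2+/+ it was Serpinh1, the collagen chaperone HSP47, with an LFC of 2.104 (limma, adjusted p = 0.842) and a value of 0 in replicate 3 of Prm2+/+.

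Of 23 genes of the unfolded protein response and ER-associated degradation, 22 were tested. At an unadjusted limma p under 0.05, 1 was higher for Prm2-/- against Prm2+/+ and 2 were higher for Prm2+/- against Prm2+/+. For Prm2-/- against Prm2+/-, 2 were lower. The shares over all tested genes in either direction were 7.33%, 4.24% and 5.44% in that order. Syvn1, which encodes the ubiquitin ligase HRD1 of ER-associated degradation, was the only one called. It had 10.5, 13.9 and 22.1 normalized counts in Prm2+/+, 149, 172 and 180.3 in Prm2+/- and 8.15, 14.2 and 9.50 in Prm2-/-. All Prm2+/- libraries were thus high and the other 6 low, with a gap of 2.70 on the log2 scale. Gaps over 1 log2 unit were found in 21.98% of tested genes. In the same list, Herpud1 and Creb3l4 had splits within genotypes. In Prm2+/+ Herpud1 had 584, 34.3 and 35.4 normalized counts and Creb3l4 had 1328, 1177 and 21.0. The cause of these splits was not tested. Syvn1 was higher in Prm2+/- by an LFC of 3.41 against Prm2+/+ (95% interval 2.72 to 4.09; limma, adjusted p = 0.00583). It was lower in Prm2-/- than in Prm2+/- by an LFC of -3.88 (limma, adjusted p = 0.0017). Over all tested genes, 0.0806% and 0.175% were called in these comparisons. Prm2-/- against Prm2+/+ did not pass for Syvn1 (LFC -0.48; limma, adjusted p = 0.746). Both calls of Syvn1 held with each library left out in turn and with edgeR and DESeq2, run after the values were seen. Leaving out 1 library cannot probe a split that all libraries of a genotype share. The smallest p for Prm2-/- against Prm2+/+ belonged to Sel1l, the partner of HRD1, with 99.6, 105.5 and 96.1 in Prm2-/- and 73.2, 78.2 and 75.1 in Prm2+/+. Its LFC of 0.41 lay below the threshold of 0.5 and did not pass (limma, adjusted p = 0.481).

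Of 17 genes of sperm surface proteins or of other factors in the maturation of ADAM3, 15 were tested and none (0) was called in any comparison by limma. Those at an unadjusted limma p under 0.05 were 1 lower for Prm2-/- against Prm2+/+, 2 lower for Prm2+/- against Prm2+/+ and 1 higher for Prm2-/- against Prm2+/-. In that order, 7.33%, 4.24% and 5.44% of all tested genes passed in either direction. Adam3 had 1952, 1918 and 2221 normalized counts in Prm2+/+, 1621, 1725 and 1926 in Prm2+/- and 1913, 1929 and 1854 in Prm2-/-. Its groups overlapped in each comparison, with an LFC of -0.09 (95% interval -0.30 to 0.11) for Prm2-/- and -0.21 (-0.41 to -0.01) for Prm2+/- against Prm2+/+ (limma, adjusted p = 0.785 and 0.842). Prss37, a protease-like protein needed for ADAM3 maturation, had 1072, 946 and 1186 in Prm2+/+ and 841, 850.4 and 921 in Prm2-/-, with no overlap. Its LFC was -0.29 (limma, adjusted p = 0.604). Ace, the testis form of which is a sperm surface enzyme, had 186, 216 and 202 in Prm2+/+ and 151, 109 and 68.9 in Prm2+/-, an LFC of -0.94 that did not pass (limma, adjusted p = 0.842).

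**Figure D5:**
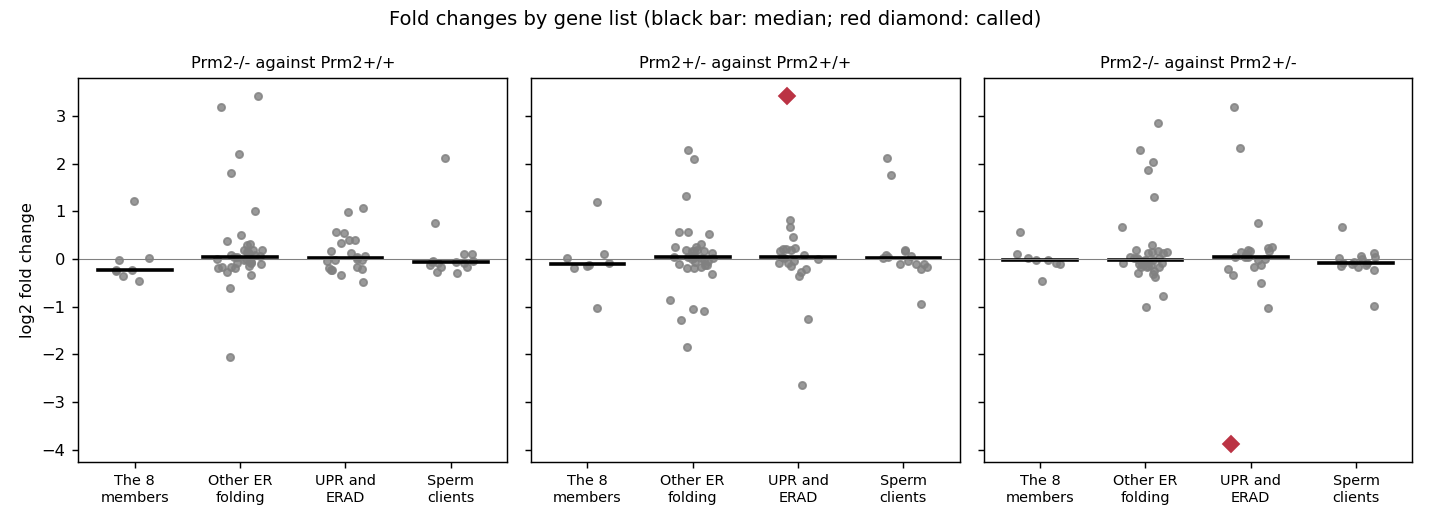
Log2 fold changes (y axis) of every tested gene in 4 lists (x axis: the 8 members, other ER folding genes, unfolded protein response and degradation genes, and sperm surface genes), 1 panel per comparison, from limma. Black bars are medians and red diamonds are called genes, of which there is 1, Syvn1, at 3.41 and -3.88.

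The list medians for Prm2-/- against Prm2+/+ were 0.04 for ER folding genes, 0.02 for response and degradation genes and -0.07 for sperm surface genes, beside 0.02 over all tested genes. For Prm2+/- against Prm2+/+ they were 0.04, 0.03 and 0.02, beside 0.01, and for Prm2-/- against Prm2+/- -0.02, 0.04 and -0.09, beside -0.01. Gaps of over 1 log2 unit between libraries were found for 2 of the 8 members (25%), 8 of 37 ER folding genes (21.6%), 4 of 22 response and degradation genes (18.2%) and 2 of 15 sperm surface genes (13.3%), compared with 21.98% of tested genes. Replicate 3 of Prm2+/+ was the highest library for 8 of the 37 ER folding genes (21.6%) and 6 of the 15 sperm surface genes (40%).

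The genes whose profile over the 9 libraries was most like that of each testis form were found from the root mean square difference of centred log2 values. For Clgn they were Endod1 (0.0432), with 25.4 to 36.5 normalized counts, and Gm35549 (0.0442). For Pdilt they were Wdr12 (0.0359), a ribosome biogenesis gene with 687 to 969, and Rusc1 (0.0619). For these flat profiles 32.6% and 34.6% of tested genes lay within 0.25, so the likeness is weak in information. For Calr3 they were Smn1 (0.364), the survival motor neuron gene, and Cnot10 (0.404), a subunit of the CCR4-NOT deadenylase. Both were high in replicate 3 of Prm2+/+, which follows from choosing them by likeness to Calr3. They had 217 and 222 normalized counts there, compared with 15.2 to 47.7 and 24.3 to 36.5 in the other 8 libraries.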

How the data were processed

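The 8 genes and the other gene lists were chosen with earlier results of these data known. The 9 testis libraries were sequenced by QuantSeq. Per the submitters' processing notes and the paper, the authors used Trim Galore 0.4.5, HISAT2 2.1 on GRCm38, StringTie 1.3.3 with its script for gene-level counts, and DESeq2. The values the authors deposited are a signal, namely normalized counts, each library's counts divided by 1 size factor. Dividing each library by its smallest step turned 100% of values into whole numbers (tolerance 1e-06), which were taken as the counts. In replicate 1 of Prm2+/- the step is close to 1, so whole numbers there prove less. The counts come from the script's conversion of coverage, so they may not equal the number of sequenced reads, and whether strand was used is not given in the sources used here. There were 0 columns without a sample.

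Limma 3.58.1 (lmFit, eBayes with trend) was fitted to log2 of the normalized count plus 1 in all 9 libraries, with genotype as the only term, for the 14893 genes kept by filterByExpr. A count model had been written as the main test. It was replaced because the deposited unit is not counts, and edgeR 4.0.16 and DESeq2 1.42.0 on the recovered counts were alternatives, as were TMM factors, pseudocounts of 0.5 and 5, other filters on low counts, the 6 samples compared, a replicate block and leaving out each library. A gene was called at an LFC beyond 0.5 in either direction with an adjusted p (Benjamini-Hochberg, over all tested genes) under 0.05. The paper calls the replicates of each genotype biological, while the labels tie no library to an animal, and p-values measure the spread between these samples. Intervals from counts cover counting error only.

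Genes named were the 8 members, Prm2, Hspa5, Hsp90b1, Adam3, called genes of the 3 further lists or else the gene with the smallest p, and for Clgn, Calr3 and Pdilt the 2 tested genes with the most similar profile. Neighbouring and marker genes were named after their values were seen. Positions are from GENCODE M21, to which 38520 of 38685 entries (99.6%) were matched. Tmx2, Adam1a, Cmtm2a, Izumo1, Ctsl and Insl3 were not analysed here. The fits were tested on simulated data. Software was R 4.3.3 and Python 3.11.15 with pandas 2.3.3, numpy 2.4.6 and, for figures, matplotlib 3.10.9.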

Additional observations from a re-analysis of the deposited data

How the results depend on the processing

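No member was called in any comparison under the other scaling, pseudocounts, filters, fits and tools run. With each library left out in turn, the members called higher ran from 0 to 1 for Prm2-/- against Prm2+/+ and from 0 to 1 for Prm2+/- against Prm2+/+. The 1 was Canx without replicate 1 of Prm2+/+. Of 429 alternative values of the 24 member LFCs, 406 kept their direction and side of the threshold, 21 reversed, all with a library left out, and 2 passed. Low-count filters, the 6 samples compared, the replicate block and leaving out a library of the genotype not compared do not alter a limma LFC. Many of the 406 thus repeat the main LFC by design. The LFCs that reversed, with their range over the libraries left out, were for Prm2-/- against Prm2+/+ Calr3 (-1.11 to 0.76), Pdilt (-0.0345 to 0.107) and P4hb (-0.0877 to 0.0574). For Prm2+/- against Prm2+/+ they were Calr3 (-1.67 to 0.20), Pdilt (-0.184 to 0.01995), Pdia4 (-0.0624 to 0.399) and P4hb (-0.0554 to 0.08795). For Prm2-/- against Prm2+/- they were Clgn (-0.1099 to 0.0336), Canx (-0.0516 to 0.0885), Pdilt (-0.00584 to 0.198) and P4hb (-0.102 to 0.0309). Calr3 reversed against Prm2+/+ without replicate 3 of Prm2+/+. By edgeR its LFC was -1.52 and -2.06 against Prm2+/+, compared with -0.46 and -1.02 in limma, and DESeq2 gave it no adjusted p. For Syvn1 the alternatives were chosen after seeing the data, and a minimum of 10 reads in every sample left it out. Under the others its LFC ran from 3.11 to 3.68 for Prm2+/- against Prm2+/+ and from -4.10 to -3.48 for Prm2-/- against Prm2+/-, and both calls held.

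Over all tested genes, 23 were called higher and 4 lower for Prm2-/- against Prm2+/+, 9 and 3 for Prm2+/- against Prm2+/+, and 22 and 4 for Prm2-/- against Prm2+/-. In that order of comparisons DESeq2 gave 104 and 36, 33 and 33, and 89 and 24, and a minimum of 10 reads in every sample gave 8 and 1, 1 and 0, and 10 and 1. Genes with any read gave 8, 8 and 9 lower. Only the 6 samples compared gave 47 higher, 6 lower, and 45 higher and 7 lower. Leaving out 1 library gave 20 to 58 higher and 2 to 12 lower, 6 to 39 and 3 to 15, and 17 to 44 and 3 to 10. The cause was not tested.

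Replicate numbers gave little sign of pairing, since deviations of same-numbered libraries from their group means correlated at only -0.0365 to 0.0423. A library was closest to its own number in 10 of 18 comparisons. Each was a choice among the 3 libraries of another genotype, so that count does not show an absence of pairing. With a replicate block, 14 genes were called higher and 1 lower, 3 and 3, and 12 and 2, with 0 members among them. Canx then had an LFC of 1.21 and an adjusted p of 0.648 in limma.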
